A study of Rattus norvegicus with 15 samples.

Results

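The genes described here are interferon-induced antiviral genes and genes of class I antigen processing, 40 listed by symbol and read from the gene counts of 15 rat mammary tumour libraries. Of these, 37 had a row in the table of 17463 genes, and HERC6, XAF1 and NLRC5 were not analysed here. IFIT1 was dropped because it had 5 counts over all libraries, under the minimum of 30. The remaining 36 were described in 2 groups, 28 genes typical of a type I interferon response and 8 genes made up of IRF1, 2 guanylate-binding proteins (GBP2 and GBP5) and 5 parts of the class I processing line (PSMB8, PSMB9, TAP1, TAP2 and B2M). All 36 passed the expression filter, which kept 11665 genes.

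The tumours came from Fischer rats, a laboratory strain, that had been given the alkylating carcinogen N-nitroso N-methylurea (NMU) at 50 mg/kg on 2 occasions. Midkine is a secreted growth factor that binds heparin. Per its title, the study concerned midkine in age-related change and in the forming of mammary tumours. The 9 midkine libraries came from rats that received 300 ug/kg of the protein in 3 injections weekly over the 2 weeks before each NMU dose, and the 6 vehicle libraries from rats labelled as vehicle-treated, with the vehicle itself, the age of the rats and any genotype not given in the sources used here. Libraries are named by group and title number: vehicle 2-1, 2-2, 3, 4, 5 and 6, and midkine 1, 2, 3-1, 3-2, 4-1, 4-2, 4-3, 5 and 6. No label says whether libraries that share a title number came from 1 animal, so the spread behind each p-value is that between libraries and may in part be technical or fall within 1 rat.

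Interferons are secreted when cells sense foreign or misplaced nucleic acid. Type I interferons act through JAK kinases on a complex that holds STAT2 and IRF9 and binds the interferon-stimulated response element (ISRE) in the promoters of antiviral genes. Interferon gamma, made by T and NK cells, acts on gamma-activated sites (GAS) and through IRF1, and is a strong inducer of guanylate-binding proteins, of the immunoproteasome and of the peptide transporter that loads class I molecules. Many of these genes answer to both kinds of interferon.

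Promoters of 27 of the 36 genes were found by symbol in RefSeq (rat assembly GRCr8), as windows from 250 bases before to 50 after the gene start. An ISRE core, GAAANNGAAA on either strand, was present in 18 of the 27, namely in 12 of 19 type I-like genes and 6 of 8 GBP and class I genes, against 3.92% of all 33469 promoters of the same length. The GAS letters TTCNNNGAA were in 6 of the 27, against 8.87% of all promoters, and an NF-kappaB consensus was in 6 (DTX3L, OASL, IRF1, GBP5, TAP1 and B2M), against 7.51%. No overlap between matches of different motifs was removed. The 6 windows below are shown because their genes carry the patterns described further on: the type I-like genes IRF7 and OAS1A had lower medians in midkine, the fold changes of IFIT3 and RSAD2 rested on 1 library, and GBP5 and TAP1 stood highest in the same 2 libraries. Each runs 5′ to 3′ on the gene's strand from 150 bases before to 50 bases after the start, with every ISRE core in capitals. The first letters of the core read GAAA on the printed strand or, for the other strand, TTTC.
IRF7, chr1:205799974-205800173, minus strand: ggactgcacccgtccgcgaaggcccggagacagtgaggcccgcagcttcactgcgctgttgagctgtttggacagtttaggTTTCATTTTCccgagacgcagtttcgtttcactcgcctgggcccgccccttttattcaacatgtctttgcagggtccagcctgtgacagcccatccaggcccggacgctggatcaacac
OAS1A, chr12:41330316-41330515, plus strand: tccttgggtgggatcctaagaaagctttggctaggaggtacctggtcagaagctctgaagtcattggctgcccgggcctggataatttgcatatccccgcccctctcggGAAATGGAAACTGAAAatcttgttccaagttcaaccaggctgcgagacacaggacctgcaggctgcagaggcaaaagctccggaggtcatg
IFIT3, chr1:241527176-241527375, plus strand: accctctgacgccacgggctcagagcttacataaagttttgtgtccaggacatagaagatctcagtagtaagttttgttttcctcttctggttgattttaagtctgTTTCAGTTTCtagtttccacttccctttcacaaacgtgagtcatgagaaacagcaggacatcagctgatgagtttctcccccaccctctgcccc
RSAD2, chr6:48788071-48788270, minus strand: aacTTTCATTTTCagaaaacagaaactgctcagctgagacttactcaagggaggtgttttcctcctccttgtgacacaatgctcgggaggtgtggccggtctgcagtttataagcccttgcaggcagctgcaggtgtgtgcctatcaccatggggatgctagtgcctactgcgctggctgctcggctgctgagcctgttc
GBP5, chr2:233910849-233911048, plus strand: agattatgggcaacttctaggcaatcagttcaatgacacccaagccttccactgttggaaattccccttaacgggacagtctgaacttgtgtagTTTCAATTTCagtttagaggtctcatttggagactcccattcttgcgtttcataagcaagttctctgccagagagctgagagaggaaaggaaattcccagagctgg
TAP1, chr20:4668494-4668693, minus strand: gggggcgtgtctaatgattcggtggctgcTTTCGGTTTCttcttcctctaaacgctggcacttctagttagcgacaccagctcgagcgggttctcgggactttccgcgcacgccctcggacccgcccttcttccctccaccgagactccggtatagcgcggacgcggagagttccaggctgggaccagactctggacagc
The OAS1A window held 2 overlapping cores, starting 41 and 35 bases before the gene start, and the RSAD2 core lay farthest out, 147 bases before it. These matches describe letters in a window and were not measured as binding.

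Libraries held 4925504 to 8486523 counted reads (median 7252603), so that counting error was small for most of these genes. The lowest count of any of the 36 genes in a library was 8, for IFIT3 in midkine 1. Epithelial markers (EPCAM, KRT8 and others) were present in every library, at a summed 2807 to 13631 CPM (reads scaled to a common library size, after adjustment by trimmed mean of M-values). Several midkine libraries held much RNA of other tissues: skeletal muscle markers summed to 320387 CPM in midkine 1 against 323 to 749 CPM in vehicle, and fibroblast markers to 145275 CPM in midkine 5 against 620 to 11046 CPM in vehicle. T and NK cell markers summed to 2217 CPM in midkine 4-2 and 911 CPM in midkine 3-2, against 51.2 to 136 CPM in vehicle. The scaling factor of midkine 1 was 0.558, against 0.890 to 1.13 in the other libraries, and all its CPM values depend on it.

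Across all 15 libraries the 28 type I-like genes tended to lie lower in midkine tumours and the 8 GBP and class I genes did not, but no gene passed the test. The median log2 fold change of midkine over vehicle was -0.25 for the type I-like genes (9 higher, 19 lower) and 0.17 for the GBP and class I genes (6 higher, 2 lower), against 0.04 for all genes kept. Single libraries moved both medians: the first was -0.15 without midkine 1, and the second 0.28 without midkine 1, 0.10 without midkine 3-2 and 0.08 without midkine 4-2. None of the 11665 genes was called by edgeR's quasi-likelihood test with Benjamini-Hochberg adjustment (0%), and the smallest adjusted p among the 36 was 0.405, for OAS2. At an unadjusted p under 0.05, 4 type I-like genes were lower (OAS2, IRF7, DDX58 and ISG20), where 2.13% of all genes were lower, and GBP5 alone of the 36 was higher, where 7.96% of all genes were higher. The 4 became 1 without vehicle 2-1 or vehicle 5, 2 without vehicle 3, vehicle 4, midkine 1, midkine 2 or midkine 3-1, and 7 without midkine 4-3. The share of all genes at that p in each of these fits was not set beside them. Their change is therefore no result about these genes. DESeq2 called 92 of 13897 genes (0.662%), none of them among the 36, and limma-voom called no gene. In such bulk tissue, fewer cells of a type and less RNA per cell cannot be told apart.

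**Figure D1:**
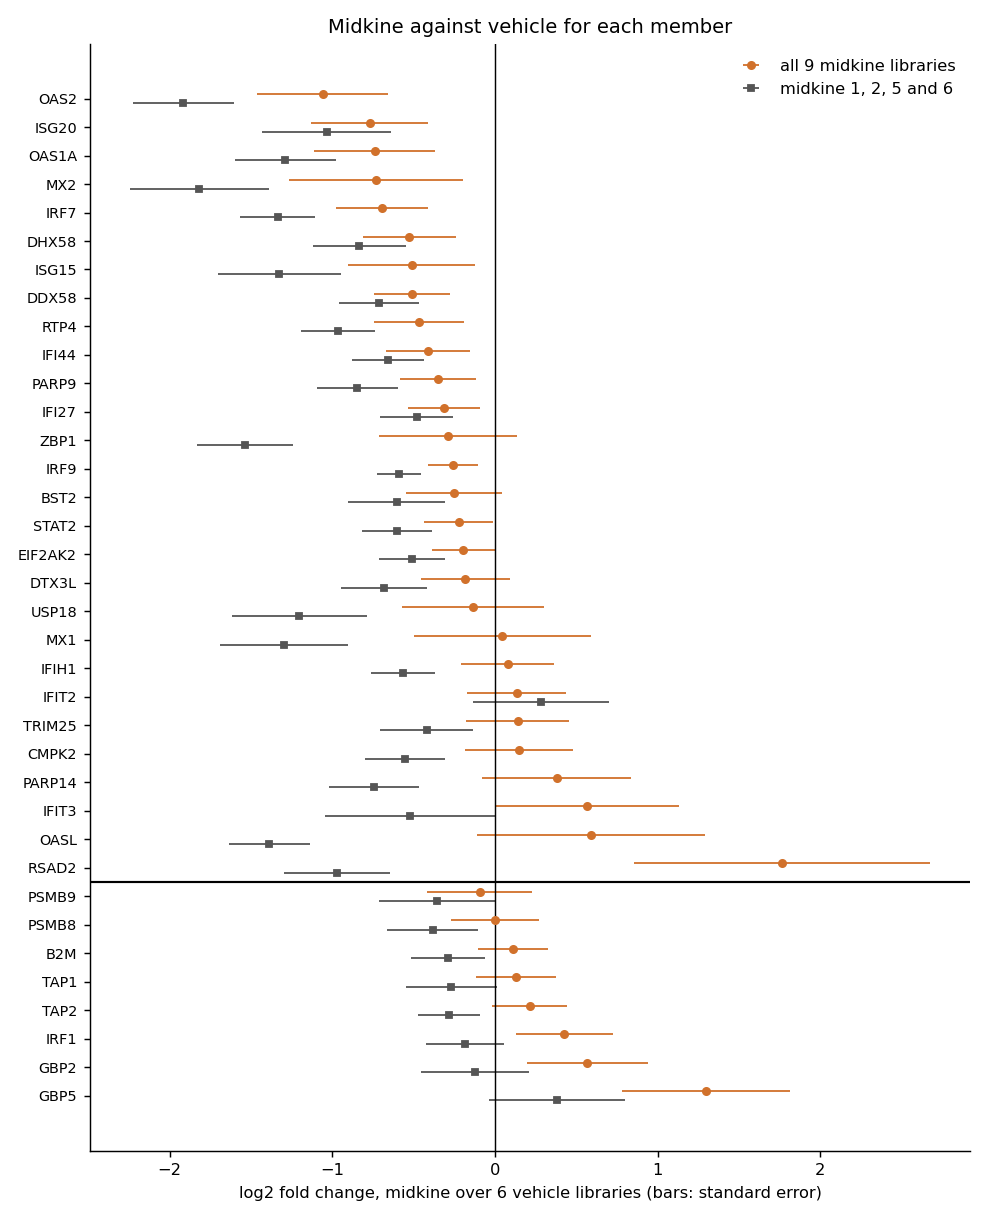
Log2 fold change of midkine over the 6 vehicle libraries (x axis) for each gene (y axis), type I-like genes above the line and GBP and class I genes below, ordered by the value over all 9 midkine libraries. Circles use all 9 midkine libraries and squares midkine 1, 2, 5 and 6 only, with bars for the standard error. The squares lie left of 0 for 27 of the 28 type I-like genes, and the circles for 19.

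Among the nucleic acid sensors and their regulators, 4 were lower and 2 higher in midkine on average, and none was called. DDX58, which encodes the RNA sensor RIG-I, ran from 46.8 to 109 CPM (median 75.9) in vehicle and from 33.6 to 82.9 CPM (median 45.6) in midkine. In 5 of 9 midkine libraries it lay below every vehicle library (log2 fold change -0.51, SE 0.23, edgeR adjusted p = 0.483). DHX58, which encodes the regulatory helicase LGP2, ran from 49.3 to 72.6 CPM (median 56.3) in vehicle and from 18.3 to 74.6 CPM (median 42.8) in midkine. It lay below every vehicle library in 6 of 9 midkine libraries, yet its highest value was that of midkine 4-3 (log2 fold change -0.53, SE 0.29, edgeR adjusted p = 0.567). IFIH1, encoding the long-RNA sensor MDA5, had a fold change near 0 (log2 0.08, SE 0.29), with its 2 highest levels in midkine 3-2 (38.0 CPM) and midkine 4-2 (28.7 CPM). ZBP1, a sensor of Z-form nucleic acid linked to cell death, spread from 6.43 CPM in midkine 1 to 40.7 CPM in midkine 4-2, against 16.0 to 34.2 CPM in vehicle. EIF2AK2, the double-stranded RNA-activated kinase PKR, and TRIM25, a ubiquitin ligase that acts on RIG-I, gave -0.19 (SE 0.19) and 0.14 (SE 0.32) on the log2 scale.

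The transcription factors of the type I response showed their largest difference in IRF7, which amplifies interferon production and is itself induced by interferon. IRF7 ran from 91.5 to 174 CPM (median 123) in vehicle and from 41.1 to 132 CPM (median 57.3) in midkine. Of the midkine libraries, 6 lay below every vehicle library and 3, all of title number 4, inside the vehicle range (log2 fold change -0.70, SE 0.28, edgeR adjusted p = 0.433). IRF9, the DNA-binding part of the complex that binds the ISRE, ran from 64.6 to 92.6 CPM in vehicle and from 47.6 to 89.2 CPM in midkine (log2 fold change -0.26, SE 0.15). STAT2, its partner, differed less (log2 fold change -0.22, SE 0.21), and 2 of 9 midkine libraries lay below the vehicle range.

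Among the oligoadenylate synthetases, enzymes that activate RNase L on sensing double-stranded RNA, OAS2 had the smallest p of all 36 genes. OAS2 ran from 12.6 to 31.2 CPM (median 24.1) in vehicle and from 3.54 to 22.5 CPM (median 6.59) in midkine. It was below every vehicle library in 6 of 9 midkine libraries, and the other 3 (midkine 3-1, 4-1 and 4-3) lay within the vehicle range (log2 fold change -1.06, SE 0.40, edgeR adjusted p = 0.405). OAS1A, a rat copy of the first family member, ran from 41.4 to 97.2 CPM (median 70.2) in vehicle and from 12.2 to 86.3 CPM (median 44.5) in midkine. In 4 midkine libraries it lay below the vehicle range (log2 fold change -0.74, SE 0.37, edgeR adjusted p = 0.532). Reads of near-identical OAS1 copies may be split between them, so the OAS1A values are uncertain. OASL, a family member that acts with RIG-I, behaved otherwise: 6 of 9 midkine libraries lay below the lowest vehicle library (15.8 CPM), while midkine 3-2 stood at 183 CPM against a vehicle maximum of 24.8 CPM. Its log2 fold change was 0.59 (SE 0.70) with all libraries and -0.70 (SE 0.30) without midkine 3-2.

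MX1 and MX2 encode dynamin-like GTPases that block virus particles, and their genes lie next to each other but for FAM3B in the GRCr8 gene order. MX2 ran from 46.9 to 223 CPM (median 104) in vehicle and from 13.7 to 188 CPM (median 41.0) in midkine (log2 fold change -0.73, SE 0.53). MX1 ran from 19.4 to 67.0 CPM (median 27.0) in vehicle and from 8.91 to 140 CPM (median 21.8) in midkine, with the maximum in midkine 4-2. The log2 fold change of MX1 was 0.04 (SE 0.54) and became -0.63 without midkine 4-2. The neighbours thus had different leading libraries, midkine 4-2 for MX1 and vehicle 4 for MX2.

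The IFIT genes encode proteins that bind foreign RNA. IFIT2 was the only type I-like gene that was not lower in the 10-library comparison described further on, and its highest level was that of midkine 5 (70.0 CPM, against 16.6 to 38.9 CPM in vehicle). Its neighbour IFIT3 was highest in midkine 3-2 (36.3 CPM, against 2.96 to 11.96 CPM in vehicle), and its log2 fold change of 0.57 (SE 0.57) became -0.03 (SE 0.43) without that library.

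RSAD2, which encodes the antiviral enzyme viperin, stood far up in 1 library. It ran from 4.45 to 12.2 CPM (median 10.7) in vehicle and from 3.28 to 215 CPM (median 7.54) in midkine, where the second highest library was at 18.6 CPM. Its log2 fold change of 1.77 (SE 0.91, edgeR adjusted p = 0.546) became -0.05 (SE 0.39) without midkine 3-2. CMPK2, the nucleotide kinase gene next to RSAD2, was also highest in midkine 3-2 (46.8 CPM, against a highest vehicle level of 23.8 CPM), with a log2 fold change of 0.15 (SE 0.33).

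ISG20, an exonuclease that degrades viral RNA, ran from 46.3 to 88.0 CPM (median 56.4) in vehicle and from 8.37 to 81.3 CPM (median 33.5) in midkine. With 7 of 9 midkine libraries below every vehicle library, ISG20 had the most of any type I-like gene (log2 fold change -0.77, SE 0.36, edgeR adjusted p = 0.488). ISG15, a ubiquitin-like modifier, ran from 21.2 to 85.1 CPM in vehicle and from 16.4 to 85.9 CPM in midkine (log2 fold change -0.51, SE 0.39). USP18, which removes ISG15 and damps receptor signalling, ran from 18.9 to 53.5 CPM in vehicle and from 7.86 to 64.3 CPM in midkine (log2 fold change -0.13, SE 0.44). Both genes were lowest in midkine 1 and highest in midkine 4-1.

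PARP9, DTX3L and PARP14 lie side by side in the GRCr8 gene order, and PARP9 and DTX3L proteins form an ADP-ribosylation and ubiquitin ligase complex. PARP9 ran from 151 to 225 CPM in vehicle and from 59.5 to 206 CPM in midkine (log2 fold change -0.35, SE 0.24). DTX3L had a log2 fold change of -0.18 (SE 0.27). PARP14, a further ADP-ribosyltransferase, had a log2 fold change of 0.38 (SE 0.46), which became -0.09 (SE 0.33) without midkine 3-2. In that library PARP14 stood 4.91-fold and DTX3L 2.12-fold above the median of the other 14 libraries, whereas PARP9 stood 1.21-fold above it.

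The last type I-like genes were lower in midkine on average. RTP4, a chaperone of receptors, ran from 55.9 to 98.7 CPM (median 81.4) in vehicle and from 25.8 to 105 CPM (median 52.6) in midkine. Its log2 fold change was -0.47 (SE 0.28, edgeR adjusted p = 0.606), and 5 midkine libraries lay below the vehicle range while midkine 4-3 lay above it. IFI44 (log2 fold change -0.41, SE 0.26), IFI27, a mitochondrial and nuclear envelope protein gene (-0.32, SE 0.22), and BST2, the tetherin that holds budding virus at the cell surface (-0.25, SE 0.29), all had medians lower in midkine than in vehicle. IFI27 was among the most highly counted of these genes, at 669 to 1146 CPM in vehicle and 354 to 1017 CPM in midkine.

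**Figure D2:**
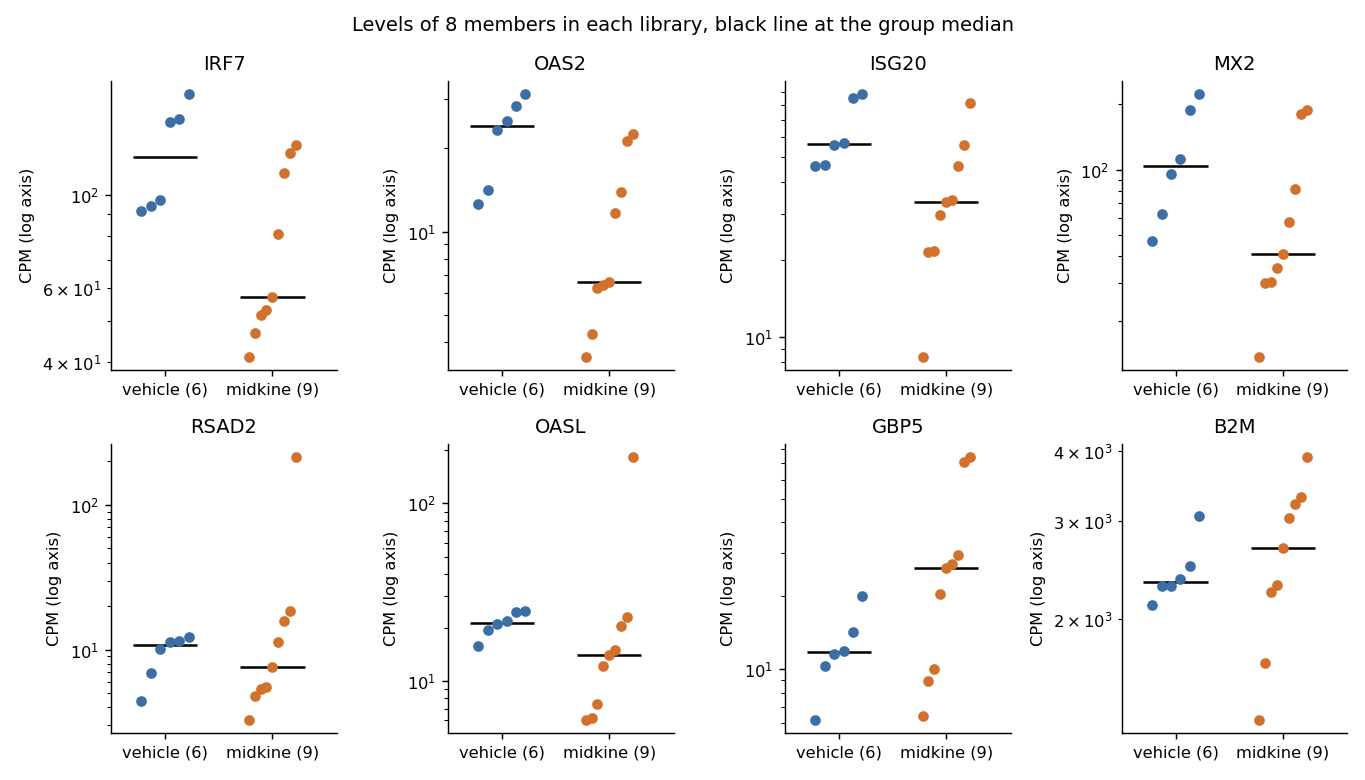
Level (CPM, log axis) of 8 genes in each of the 6 vehicle and 9 midkine libraries, points sorted within a group, black lines at the medians. IRF7 and OAS2 lay below the vehicle range in 6 of 9 midkine libraries, GBP5 above it in 6, and single libraries stood far up for RSAD2 and OASL (215 and 183 CPM in midkine 3-2).

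IRF1, GBP2 and GBP5 had higher means in midkine than in vehicle over all libraries, and none was called. GBP5, a GTPase that acts on membranes and inflammasomes, ran from 6.19 to 20.02 CPM (median 11.7) in vehicle and from 6.43 to 74.4 CPM (median 25.9) in midkine. It was above every vehicle library in 6 of 9 midkine libraries, highest in midkine 3-2 and midkine 4-2 (74.4 and 70.7 CPM). Its log2 fold change was 1.30 (SE 0.52, edgeR adjusted p = 0.431) and 1.01 (SE 0.48) without midkine 3-2. GBP2, 3 places away in the GRCr8 gene order with GBP7 and GBP4 between, ran from 43.5 to 97.1 CPM in vehicle and from 31.7 to 258 CPM in midkine, and its log2 fold change of 0.57 (SE 0.37) became 0.22 (SE 0.27) without midkine 3-2. IRF1, the factor that drives many gamma-induced genes, ran from 53.7 to 92.6 CPM in vehicle and from 36.2 to 200 CPM in midkine (log2 fold change 0.43, SE 0.30, and 0.21, SE 0.24, without midkine 3-2). Without midkine title numbers 3 and 4 the log2 fold changes were 0.38 for GBP5 (SE 0.42), -0.12 for GBP2 (SE 0.33) and -0.18 for IRF1 (SE 0.24). T and NK cell markers stood higher over all libraries as well, with 17 of the 17 kept higher, 13 of them at an unadjusted p under 0.05. Of all 11665 genes, 6494 were higher, and 7.96% were higher at that p. The median log2 fold change of the T and NK cell markers was 2.43, and 0.12 without those title numbers. Their part in the levels of these 3 genes was not tested. The guanylate-binding protein genes are close copies, so their reads may be shared.

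The class I processing genes differed little between the groups. PSMB8 and PSMB9, catalytic subunits of the immunoproteasome, had differences of -0.001 (SE 0.27) and -0.09 (SE 0.32) on the log2 scale. For TAP1 and TAP2, which together form the peptide transporter, the log2 differences were 0.13 (SE 0.25) and 0.21 (SE 0.23), and these were 0.03 for TAP1 without midkine 3-2 and 0.10 for TAP2 without midkine 4-2. B2M, the light chain of every class I molecule, ran from 2117 to 3055 CPM (median 2327) in vehicle and from 1322 to 3900 CPM (median 2684) in midkine (log2 fold change 0.11, SE 0.21, and 0.02 without midkine 4-2). The midkine libraries spread more widely than the vehicle libraries for all 5 of these genes, with midkine 1 lowest for each. The order of TAP2, PSMB8, TAP1 and PSMB9 in GRCr8 is unbroken by other genes, yet midkine 3-2 held the highest TAP1 level (276 CPM) beside 101 CPM of PSMB9, against 197 to 376 CPM of PSMB9 in vehicle.

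Levels of the 2 groups, each as the mean log2 CPM of its genes, varied more among midkine than among vehicle libraries. The type I-like mean was 5.68 ± 0.31 (SD, n = 6) in vehicle and 5.29 ± 0.54 (SD, n = 9) in midkine, with vehicle 4 at 6.04 on top, midkine 4-1 at 5.99 and midkine 4-3 at 5.92 next to it. Midkine 1, 5, 6 and 2 were the 4 lowest of the 15 (4.54, 4.64, 4.88 and 5.03), and midkine 3-1, 3-2, 4-1, 4-2 and 4-3 lay within the vehicle range (5.34 to 5.99). The GBP and class I mean was 6.75 ± 0.15 (SD, n = 6) in vehicle and 6.93 ± 0.59 (SD, n = 9) in midkine. Midkine 4-2 (7.67), 3-2 (7.50), 3-1 (7.21), 4-1 (7.14), 4-3 (7.01) and 6 (6.99) exceeded the highest vehicle library (6.94), and midkine 1 lay lowest at 5.69. Midkine 6 was thus among the lowest libraries for the type I-like genes and above the vehicle range for the GBP and class I genes.

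**Figure D3:**
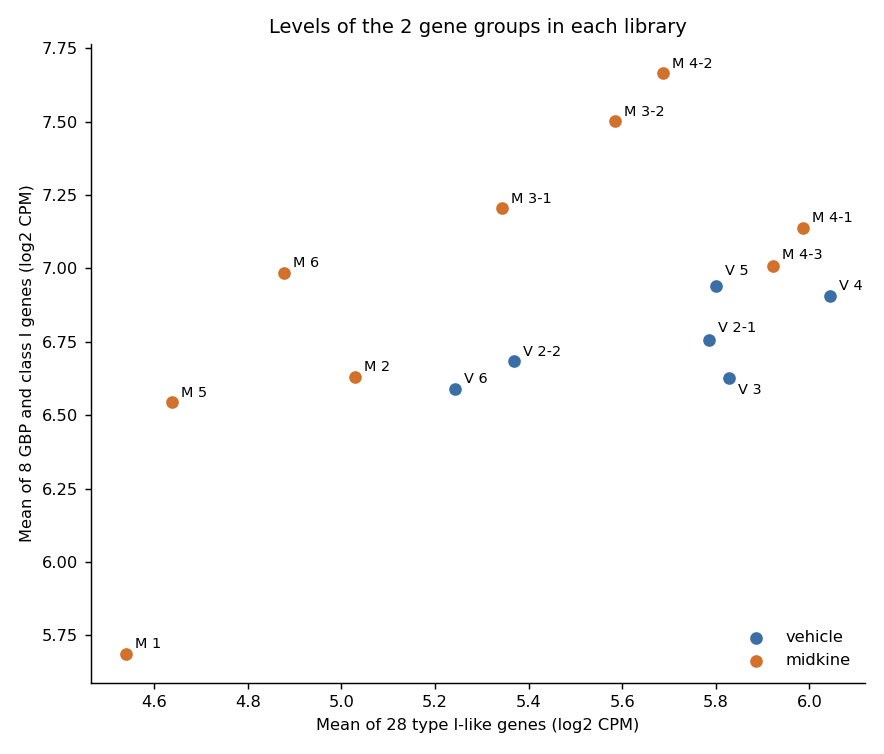
Mean log2 CPM of the 28 type I-like genes (x axis) against the mean log2 CPM of the 8 GBP and class I genes (y axis), one point per library, V for vehicle and M for midkine. Midkine 1, 2, 5 and 6 lie left of every vehicle library, and midkine 1 alone is far down on both axes.

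Midkine 3-2 stood apart across all genes, and its type I-like genes were spread in both directions. Of the 28, 8 were at least 2-fold above the median of the other 14 libraries and 9 at least 2-fold below, against 18.8% and 21.7% of all genes in that library. The genes above included RSAD2 (24.3-fold), OASL (10.4-fold), IFIT3 (6.22-fold) and PARP14 (4.91-fold), and the genes for which it was the lowest of the 15 libraries were OAS1A, OAS2, DDX58, MX2, IFI44 and IFI27. Of the 8 GBP and class I genes, GBP5 (5.71-fold), GBP2 (3.67-fold) and IRF1 (2.66-fold) were at least 2-fold above and PSMB9 at least 2-fold below. Among the sensors, IFIH1 (2.49-fold) and TRIM25 (2.40-fold) were above that median, and DHX58 (0.36-fold) and DDX58 (0.65-fold) below it. On both sides the share of type I-like genes that lay 2-fold away was above the share over all genes in this library. As they come from 1 library that stood apart across all genes, the counts are no result about these genes.

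Midkine 4-2 was the highest library for MX1, ZBP1 and 3 of the class I genes (PSMB8, TAP2 and B2M). At least 2-fold above the median of the other libraries were 2 type I-like genes, MX1 (6.56-fold) and PARP14 (2.46-fold), and 1 of the 8 GBP and class I genes, GBP5 (5.43-fold), against 11.9% of all genes. T and NK cell markers (20 listed, all in the table, none at 0 in every library) were highest in this library and leukocyte markers summed to 3332 CPM, against 114 to 228 CPM in vehicle. The part of these cells in its levels was not tested.

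Midkine 1 and midkine 5 were low for many of the genes. In midkine 1, 14 type I-like and 6 GBP and class I genes were at least 2-fold below the median of the other 14 libraries, against 15.1% of all genes. In midkine 5 the counts were 15 and 1, against 8.68% of all genes. ISG20 was 0.180 times that median in midkine 5, and USP18 was 0.188 times it in midkine 1. The summed epithelial markers were 2807 CPM in midkine 1 and 3463 CPM in midkine 5, against 6331 to 8923 CPM in vehicle, beside the muscle and fibroblast marker sums given above. In midkine 4-2 the epithelial sum was 3434 CPM, beside the leukocyte marker sum given above. There the type I-like mean lay within the vehicle range and the GBP and class I mean was the highest of all. These libraries differ in the tissue they hold besides epithelium, and the part of tissue makeup in their levels was not tested.

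**Figure D4:**
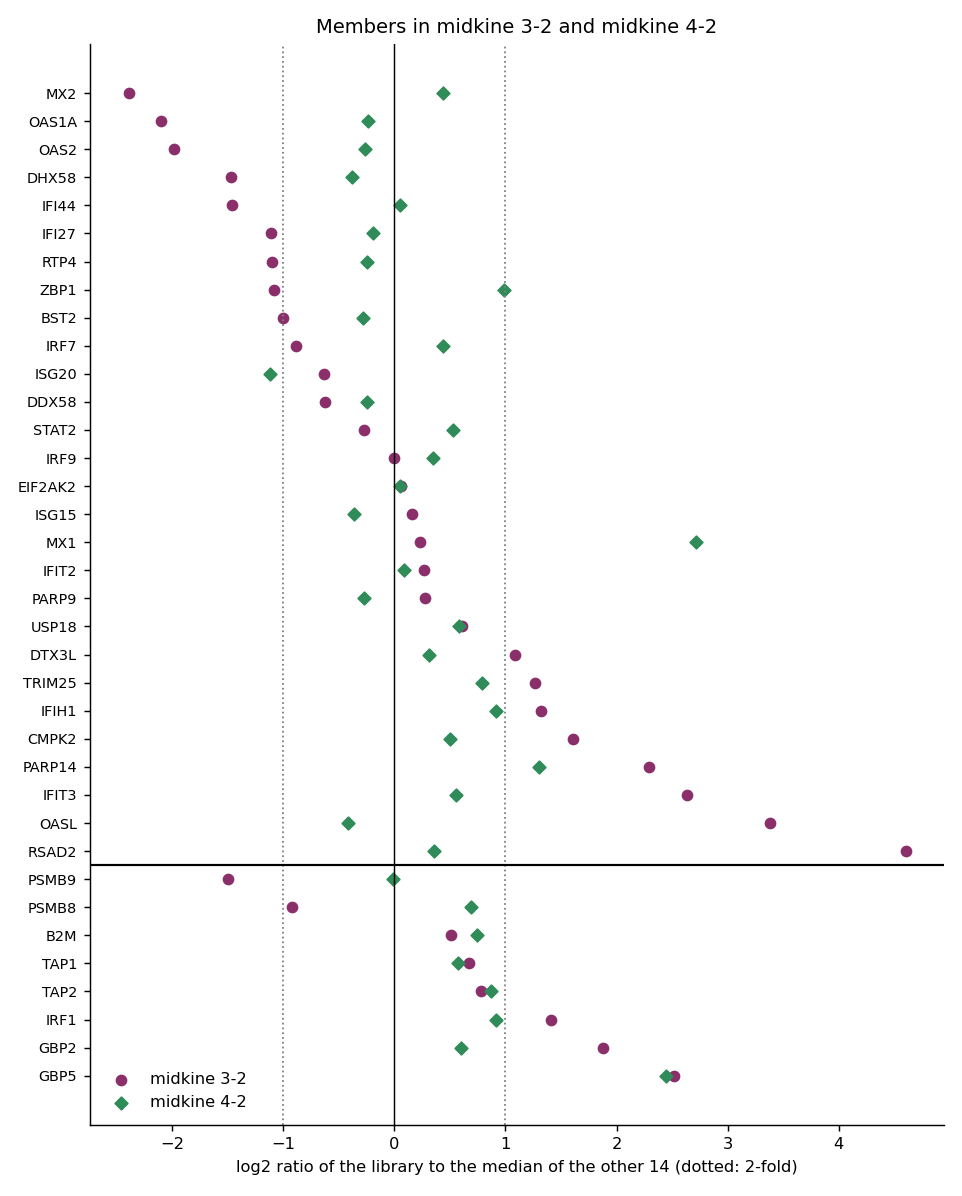
Log2 ratio of each gene's CPM in midkine 3-2 (circles) and midkine 4-2 (diamonds) to the median of the other 14 libraries (x axis), type I-like genes above the line and GBP and class I genes below, each ordered by midkine 3-2. Dotted lines mark 2-fold. RSAD2 in midkine 3-2 is the point farthest to the right (24.3-fold), and the 9 type I-like genes left of the lower dotted line include OAS2 and MX2.

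The 5 midkine libraries of title numbers 3 and 4 were left out in a comparison of 6 vehicle libraries with midkine 1, 2, 5 and 6, because these 5 had at most 1 count each of MYH4, a fast-fibre muscle myosin, in an earlier analysis of the data. That division does not hold for muscle genes at large: the skeletal muscle markers summed to 320 CPM in midkine 4-1, which was left out, and to 275 CPM in midkine 6, which was kept. In these 10 libraries 27 of 28 type I-like genes were lower in midkine, with a median log2 fold change of -0.79, and 23 of them had an unadjusted p under 0.05, where 2.72% of 11611 genes were lower. None of the 28 was higher at that p, against 7.51% of all genes, and no gene was called (smallest edgeR adjusted p = 0.283). In all 4 midkine libraries 10 type I-like genes lay below every vehicle library (OAS2, OASL, IRF7, IRF9, ZBP1, MX1, MX2, ISG20, PARP9 and RTP4), against 0.646% of all genes. These 4 were the lowest of all libraries for the type I-like mean. Genes that vary together, such as IRF7 and OAS2, are not independent of each other. The 23 and the 10 therefore describe these 4 libraries and are no test of midkine. The GBP and class I genes had a median of -0.28, with none at an unadjusted p under 0.05 and none below every vehicle library. Median log2 fold changes of marker lists in the same 10 libraries were -0.53 for epithelial, 2.25 for fibroblast and 7.52 for skeletal muscle markers, and the part of tissue makeup in the type I-like values was not tested.

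The sizes in those 10 libraries can be read from single genes. IRF7 stood at 53.3, 57.3, 46.8 and 41.1 CPM in midkine 1, 2, 5 and 6 against 91.5 to 174 CPM in vehicle (log2 fold change -1.34, SE 0.23, edgeR adjusted p = 0.283). OAS2 stood at 6.43, 6.26, 6.59 and 4.27 CPM against 12.6 to 31.2 CPM (log2 fold change -1.92, SE 0.31). All 4 OAS2 values lay below the vehicle range. ZBP1 stood at 6.43, 6.71, 7.48 and 12.9 CPM against 16.0 to 34.2 CPM (log2 fold change -1.53, SE 0.30), and OASL at 6.19, 7.45, 6.06 and 12.2 CPM against 15.8 to 24.8 CPM (log2 fold change -1.39, SE 0.25). With midkine 1 and 5 left out as well, 14 type I-like genes had an unadjusted p under 0.05 on the lower side, where 1.99% of all genes did, with a median log2 fold change of -0.72. Leaving out 1 midkine library within the 10 gave 20 without midkine 1 (2.45% of all genes), 23 without midkine 2 (4.21%), 19 without midkine 5 (1.66%) and 21 without midkine 6 (3.78%). Each of these settings draws on midkine 1, 2, 5 and 6, whose type I-like means all lay below the vehicle range. Their counts are thus no independent check. All libraries, with those of 1 title number summed to 1 (5 vehicle and 6 midkine numbers), gave 12 type I-like genes lower at an unadjusted p under 0.05. In that setting 1.56% of all genes were lower at that p. The median was -0.47 for the type I-like genes and 0.01 for the GBP and class I genes.

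**Figure D5:**
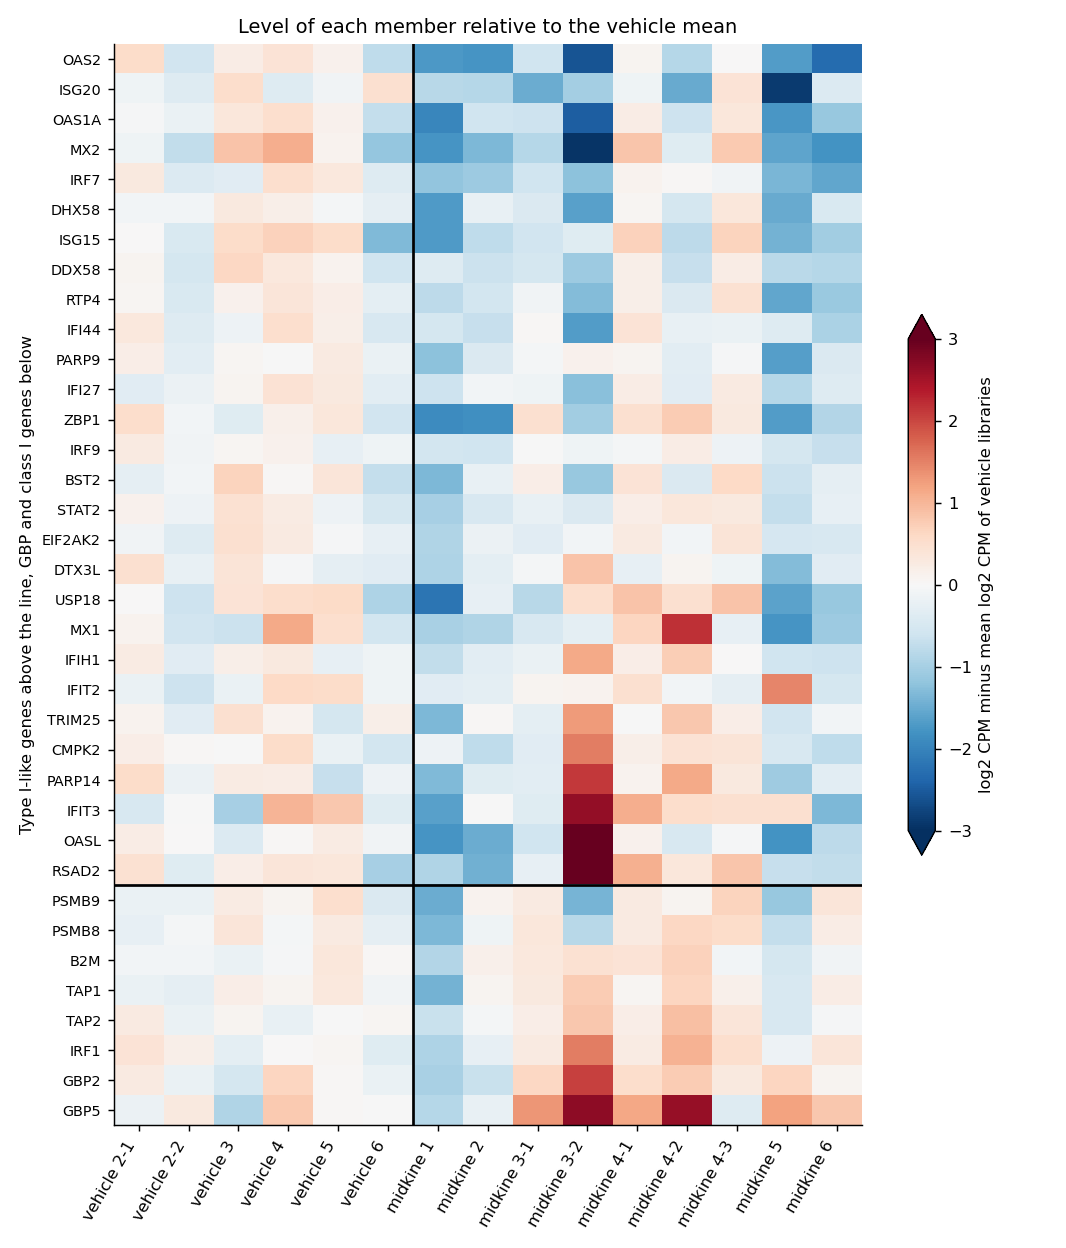
Log2 CPM of each gene (rows) in each library (columns) minus the mean log2 CPM of the vehicle libraries, red above and blue below, with colours saturated at 3. Type I-like genes are above the line and GBP and class I genes below, and vehicle libraries are left of the vertical line. Midkine 1, 2, 5 and 6 are blue for most type I-like genes, and midkine 3-2 is red for RSAD2 and OASL and blue for OAS1A and MX2.

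Pairs of a regulator or a marker and a possible partner were compared across the 15 libraries, with 6 pairs and 100000 permutations each (two-sided), p adjusted over the 6 pairs by Benjamini-Hochberg. Levels of IRF7 and OAS2 varied together (Pearson r = 0.92, permutation adjusted p = 3e-05, and Spearman rho = 0.86, permutation adjusted p = 0.00024), and r was 0.89 without midkine 5 and 6. IRF7 and ISG15 gave r = 0.73 (permutation adjusted p = 0.00441) and rho = 0.71 (permutation adjusted p = 0.0092), with r = 0.66 without the same 2 libraries. IRF1 and GBP2 gave r = 0.85 (permutation adjusted p = 0.00024) and rho = 0.68 (permutation adjusted p = 0.00951), and r was 0.59 without midkine 3-2 and 1. CD3E, a T cell receptor component, and GBP5 gave r = 0.90 (permutation adjusted p = 3e-05) and rho = 0.89 (permutation adjusted p = 0.00018), with r = 0.78 without midkine 4-2 and 3-2.

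The other 2 pairs did not pass. PTPRC, the leukocyte surface phosphatase, and PSMB9 gave r = -0.07 (permutation adjusted p = 0.822) and rho = 0.20 (permutation adjusted p = 0.463), and r was 0.32 without midkine 4-2 and 3-2. PSMB9 and TAP1 gave r = 0.48 (permutation adjusted p = 0.0831) and rho = 0.47 (permutation adjusted p = 0.0948), with r = 0.87 when midkine 3-2 alone was left out and 0.74 without midkine 1 and 3-2. Libraries of 1 title number may not be independent, which these p-values do not take into account. The permutations ran over all libraries of both groups, so differences shared by a group or by single libraries add to r. No r of other gene pairs was set beside these. The unadjusted p of the 2 pairs with the strongest Pearson r, 1e-05, is the smallest that the permutations can give.

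Around these genes, ligands were barely counted. Of 12 listed interferon genes 6 had a row in the table, and IFNK alone was kept by the expression filter (log2 fold change 0.75, SE 0.61). IFNB1 had 3 counts, all in midkine 3-2, IFNG had at most 4 counts in any library, and IFNA2 had none. Receptors and JAK-STAT genes (14 of 15 listed were kept) had a median log2 fold change of 0.20, with 12 higher and 2 lower. Of all 11665 genes, 6494 were higher. Without midkine title numbers 3 and 4 the median of the list was -0.10. Its genes summed to 2240 CPM in midkine 3-2 and 2197 CPM in midkine 4-2, against 890 to 1098 CPM in vehicle. SOCS3, the feedback inhibitor of cytokine receptors, had the lowest p of them (log2 fold change 2.52, SE 0.85, edgeR adjusted p = 0.399, and 1.28 without midkine 3-2). PTPN6 (0.72, SE 0.49), the kinase JAK1 (0.66, SE 0.35) and the receptor chain IFNGR2 (0.35, SE 0.21) were also named by smallest p. In the nucleic acid sensing line to IRF3 (12 of 19 kept), 10 genes were higher and 2 lower, among them IRF5 (1.15, SE 0.39), STING1 (1.23, SE 0.50), TLR7 (1.18, SE 0.60) and TLR3 (-0.52, SE 0.24). The median of this list was 0.33, and -0.18 without midkine title numbers 3 and 4.

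Other interferon-induced genes numbered 55, of which 40 were kept, with 17 higher, 23 lower and a median log2 fold change of -0.06. The death ligand gene TNFSF10 (-0.92, SE 0.31) and UBE2L6, which conjugates ISG15 (-0.60, SE 0.25), were lower, while SIGLEC1, a macrophage receptor (2.56, SE 1.04), and SAMHD1, a dNTP hydrolase (1.07, SE 0.51), were highest in midkine 4-2. None of these 4 passed the test (edgeR adjusted p of 0.399 to 0.500). Macrophage markers summed to 3891 CPM in midkine 4-2 against 485 to 1186 CPM in vehicle, and their part in these levels was not tested. Class I chains and loading genes (23 of 27 kept) had a median of 0.02, with 13 higher and 10 lower and none at an unadjusted p under 0.05: RT1-S3 (-0.44, SE 0.26), PSMB7 (0.23, SE 0.23), RT1-CE1 (0.22, SE 0.22) and ERAP1, the peptide trimming enzyme (-0.15, SE 0.16), had the smallest p. The RT1 chains are near-identical copies, and their counts are uncertain.

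Genes typical of interferon gamma (13 of 19 kept) had a median log2 fold change of 1.22, with 12 higher, 1 lower and 3 higher at an unadjusted p under 0.05, where 6494 of the 11665 genes were higher and 7.96% were higher at that p. These were SERPINA3N, an acute phase protease inhibitor (2.22, SE 0.83), IRF8, a myeloid and lymphoid transcription factor (2.01, SE 0.81), and CIITA, the class II transactivator (1.96, SE 0.80), each highest in midkine 4-2 and none called (edgeR adjusted p of 0.399 to 0.433). In the 10 libraries without midkine title numbers 3 and 4 their log2 fold changes were 1.30, 0.12 and 0.29, and the median of the list was -0.07. The sums of these genes were 1450 CPM in midkine 3-2 and 1134 CPM in midkine 4-2, against 286 to 408 CPM in vehicle, beside the T and NK cell and macrophage marker sums given above, whose part was not tested.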

How the data were processed

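Poly(A)-selected RNA of 15 tumour pieces (3000 ng each) was sequenced as 150-bp read pairs, per the labels' protocols. The authors deposited raw read counts, whole numbers per gene symbol (17463 symbols), per the file headers. Per the submitters' processing notes the build was rn6. How reads were aligned and counted, strand included, is not given in the sources used here. Reads of overlapping or antisense genes therefore cannot be told apart.

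Groups were taken from the treatment label. Every pair of libraries in a group differed by more than sampling noise (lowest chi-square per degree of freedom 20.2). The model was fitted with edgeR 4.0.16 under R 4.3.3: expression filter by group (11665 genes), trimmed mean of M-values scaling, quasi-likelihood F test of midkine against vehicle, Benjamini-Hochberg adjustment over all genes kept and a threshold of 0.05. The F statistic and the fold change gave each standard error. Levels are CPM after that scaling, and log2 CPM used a prior count of 2. DESeq2 1.42.0, limma-voom (limma 3.58.1), other scaling, no filter, the title number as a block, summed title numbers and libraries left out were the alternatives.

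The members and lists were chosen with earlier results of these data known. All members with at least 30 counts are named, the 9 with the smallest unadjusted p with full values, and up to 4 genes of smallest p per pathway list, so a list's named genes are not typical of it. MYH4 and genes that mark single libraries come from an earlier analysis or were chosen after their values were seen. Promoters and gene order were read from RefSeq GRCr8 by exact symbol (35 of the 36 genes used have a current symbol there) and no coordinate was carried over to rn6.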

Additional observations from a re-analysis of the deposited data

Results flagged for a closer look

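In the midkine group the highest library stood apart from the others, by Dixon's test at the 95% level, for 9 of the 36 members, and in the vehicle group for 0 of 36. Chance gives about 1 in 20 groups, and over all genes kept the highest library stood apart for 31.4% in midkine and 7.94% in vehicle, so the members' share was no higher than that of all genes. Midkine 3-2 was that library for 7 genes. RSAD2 (viperin) was at 214.7 CPM there and at 18.6 CPM in the next library, OASL at 182.7 CPM (next 23.0 CPM), and PARP14 at 258.9 CPM (next 129.9 CPM). GBP2 was at 258.0 CPM (next 106.2 CPM), CMPK2 at 46.8 CPM (next 21.8 CPM), IFIT3 at 36.3 CPM (next 12.4 CPM) and DTX3L at 36.3 CPM (next 21.3 CPM). The antiviral GTPase gene MX1 was at 140.4 CPM in midkine 4-2 against 47.7 CPM in the next library. IFIT2 was at 70.0 CPM in midkine 5 against 35.6 CPM in the next library. The lowest library did not stand apart for any of the 36 members in either group.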

How the results depend on the processing

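Over 23 settings (15 that leave out 1 library and 8 others), 770 of 828 member values kept their direction and 58 turned. Of the 36 members, 19 kept it in every setting, and the smallest adjusted p of a member in any setting was 0.215. DESeq2 called 92 genes where edgeR called 0. The type I-like median of -0.25 was -0.79 without midkine title numbers 3 and 4, and the GBP and class I median of 0.17 was -0.28 there and 0.01 with title numbers summed. Type I-like members lower at an unadjusted p under 0.05 numbered 4, and 12 with title numbers summed, 23 without midkine title numbers 3 and 4 (14 with midkine 1 and 5 left out too), 2 without midkine 1 and 3-2, an alternative chosen after seeing the data, and 1 (without vehicle 2-1 or 5) to 7 (without midkine 4-3) leaving out 1 library. With the title number as a replicate block it was 10 and no gene was called, as without it. Title number 1 has no vehicle library, so midkine 1 does not bear on the contrast in that fit. No share of all genes is given for the block fit, without midkine 1 and 3-2, or leaving out 1 library. The counts in those settings are therefore no result about these genes. The correlations of same-numbered libraries' deviations (-0.19, -0.24, 0.14, -0.19 and -0.17) do not show that the numbers pair the samples.

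Directions turned as follows, with the cause not tested. Without midkine title numbers 3 and 4, log2 fold changes were -1.39 for OASL, -0.57 for IFIH1, -0.42 for TRIM25, -1.30 for MX1, -0.52 for IFIT3, -0.97 for RSAD2, -0.55 for CMPK2, -0.75 for PARP14, -0.18 for IRF1, -0.12 for GBP2, -0.27 for TAP1, -0.28 for TAP2 and -0.29 for B2M. With title numbers summed they were -0.11 for IFIH1, -0.037 for TRIM25, -0.48 for MX1, -0.012 for CMPK2, -0.042 for TAP1 and -0.052 for B2M. In the replicate block fit they were -0.45 for OASL, -0.090 for IFIH1, -0.53 for MX1 and -0.14 for CMPK2. Without midkine 1 and 3-2 they were -0.59 for OASL, -0.047 for IFIH1, -0.14 for CMPK2, 0.21 for PSMB8 and 0.14 for PSMB9. By DESeq2, run with its default settings, they were -0.63 for OASL, -0.045 for RSAD2 and 0.0092 for PSMB8. The DESeq2 values of OASL and RSAD2 lay near those of edgeR without midkine 3-2 (-0.70 and -0.052). By limma-voom they were -0.29 for OASL and -0.24 for MX1, and with the RLE scaling 0.011 for PSMB8. Leaving out 1 library gave -0.70 to 0.77 for OASL, -0.13 to 0.17 for IFIH1, -0.083 to 0.27 for TRIM25, -0.63 to 0.35 for MX1, -0.14 to 0.27 for IFIT2, -0.025 to 0.82 for IFIT3, -0.29 to 0.010 for USP18, -0.052 to 1.95 for RSAD2, -0.16 to 0.28 for CMPK2, -0.095 to 0.52 for PARP14, -0.098 to 0.11 for PSMB8 and -0.21 to 0.021 for PSMB9. Without a turn, leaving out 1 library moved other members by over 1.5 times: to -0.12 for STAT2, -0.085 for EIF2AK2 and -0.092 for BST2 (each without vehicle 3), -0.48 for ZBP1 (without midkine 4-2), -0.47 for MX2 (without vehicle 4), -0.076 for DTX3L (without vehicle 2-1), and 0.26 for TAP1 and 0.21 for B2M (both without midkine 1). Further such values without midkine 3-2 were 0.22 for GBP2, 0.21 for IRF1, 0.033 for TAP1 and -0.37 for DTX3L. Without midkine 4-2 they were 0.10 for TAP2 and 0.022 for B2M. BST2 moved to -0.38 without midkine 4-3 and ZBP1 to -0.16 without midkine 1.

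Most listed interferon ligands had no row or too few counts to pass the filter, while each member used had at least 8 counts in every library. The part of sequencing depth in the low ligand counts was not tested.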
